A study of Rattus norvegicus with 48 samples.

Results

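The 10 microRNA names analysed here belong to the miR-34 and miR-449 family: the precursors mir-34a, mir-34b, mir-34c and mir-449a and the mature forms miR-34a-5p, miR-34b-5p, miR-34b-3p, miR-34c-5p, miR-34c-3p and miR-449a-5p. They were found by name in a table of 1063 microRNA names (612 mature and 451 precursor), and each stood on a single line of it. The 8 names of miR-34b, miR-34c and miR-449a, known from multiciliated cells, were set against the 2 names of miR-34a. Small RNA was sequenced from 2 brain regions, amygdala (A) and ventral striatum (V), of Long Evans rats at postnatal day 42, in 48 libraries. Each library was made from the pooled RNA of 3 rats of one sex and treatment, with 3 pools per sex, treatment and region. The dams had been injected during gestation with ethanol (E) or saline (C), and the offspring were housed after weaning under socially enriched (S) or non-enriched (N) conditions. The 4 treatment groups in each region were therefore saline non-enriched (CN), saline enriched (CS), ethanol non-enriched (EN) and ethanol enriched (ES), with 6 libraries each, 3 of them from females and 3 from males. All dams received injections, so no group was free of handling, and a pool hides the differences among its 3 rats. The pools of both regions came from the same rats.

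MicroRNAs of this family pair with their target mRNAs through the seed, the bases near the 5′ end of the mature strand. Mir34b and Mir34c are made from a shared transcript, and together with the Mir449 cluster they are strongly expressed in cells that carry many motile cilia, where they are required for normal ciliogenesis. In the brain such cells are the ependyma that lines the ventricles and, with them, the choroid plexus epithelium that secretes cerebrospinal fluid. miR-34a is a direct transcriptional target of p53 that is found in many tissues and has been studied in neurons, where it restrains proliferation and promotes cell cycle arrest and differentiation. No mRNA was analysed here, so the ciliated identity of the source cells was not checked against ciliary genes.

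The mature sequences show why the family is treated as a whole and where its members can be told apart. The 4 members with the seed GGCAGUG (bases 2 to 8, in capitals) came from 3 chromosomes. Only these 4 and miR-449c-5p carried it among 693 mature names in the RefSeq sequences (build GRCr8), from which the positions below are also taken.
miR-34a-5p, chr5:165815971-165815992, plus strand: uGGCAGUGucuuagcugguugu
miR-34b-5p, chr8:60306657-60306679, minus strand: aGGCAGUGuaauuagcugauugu
miR-34c-5p, chr8:60306133-60306155, minus strand: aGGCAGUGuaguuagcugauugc
miR-449a-5p, chr2:46403925-46403946, plus strand: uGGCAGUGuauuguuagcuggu

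The opposite arms of Mir34b and Mir34c shared another seed, AUCACUA, which no other of the 693 names carried. They are shown because they differ from each other more than the 5p arms do.
miR-34b-3p, chr8:60306621-60306642, minus strand: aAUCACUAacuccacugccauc
miR-34c-3p, chr8:60306101-60306122, minus strand: aAUCACUAaccacacagccagg

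miR-34b-5p and miR-34c-5p were identical at 21 of 23 positions, miR-34b-3p and miR-34c-3p at 17 of 22, and miR-449a-5p and miR-34a-5p at 15 of 22. The sources used here do not say how a read matching more than 1 name was assigned, so values of miR-34b-5p, the much less abundant of the near-identical pair, are uncertain to that extent. The Mir34b and Mir34c hairpins lay 441 bases apart, and the Mir449a and Mir449c hairpins 1436 bases apart. The deposited values were aligned to another build (Rn5), and no coordinate here was taken from it.

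miR-34c-5p was by far the most abundant member, and it varied from library to library far more than miR-34a-5p did. Values are RPM, reads per 1000000 reads among the mature or among the precursor names of a library. Across the 48 libraries miR-34c-5p ran from 141 RPM through a median of 1129 to 13297 RPM, a 94.1-fold range. miR-34a-5p ran from 50.6 RPM through a median of 122 to 329 RPM, a 6.50-fold range. The highest miR-34c-5p values were in amygdala libraries of the EN group (13297, 12037 and 10905 RPM), whereas the lowest values were found in both regions and in saline and ethanol groups alike.

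The other multiciliated members were scarcer. miR-449a-5p ran from 0 RPM through a median of 29.8 to 358 RPM. miR-34b-5p ran from 0 RPM through a median of 31.4 to 321 RPM. miR-34b-3p had a median of 25.7 RPM and a maximum of 233 RPM, and miR-34c-3p had a median of 8.64 RPM and a maximum of 64.3 RPM. miR-34c-3p, the arm of Mir34c that mostly is not retained, stood at or under 3 reads in 19 of 48 libraries. The same was true of miR-34b-5p in 9, of miR-34b-3p in 8 and of miR-449a-5p in 3, and of miR-34a-5p and miR-34c-5p in none. The libraries held 363141 to 1370412 reads of mature names, so that 3 reads were worth 2.19 to 8.26 RPM. A value of 0 therefore allows a level up to that floor, which covers counting error only.

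**Figure D1:**
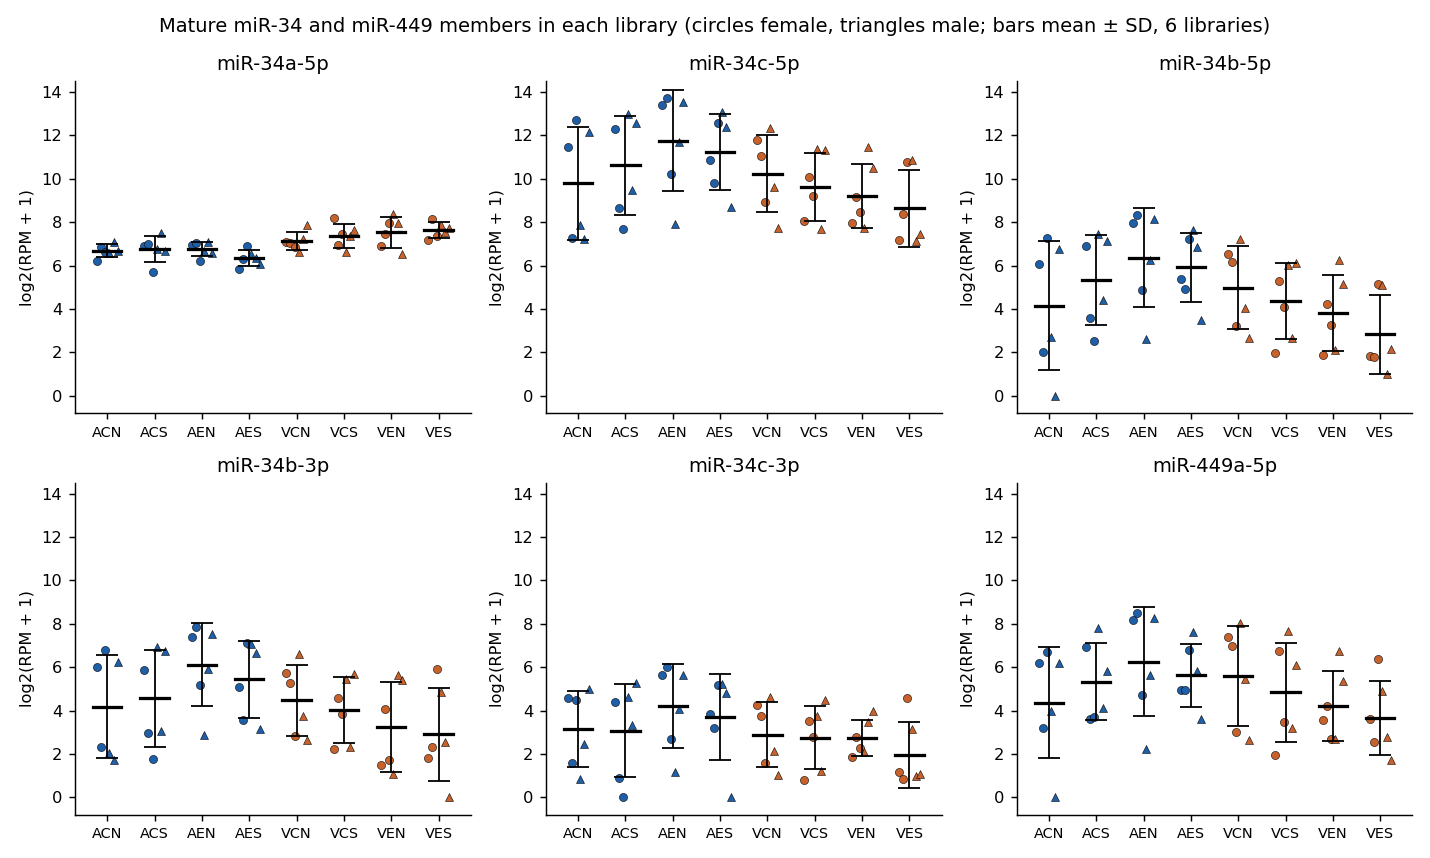
Level of each mature member in every library, as log2(RPM + 1), by region (A amygdala, V ventral striatum) and treatment (CN, CS, EN, ES). Circles are female pools, triangles male pools, and bars the mean ± SD of 6 libraries. The groups of miR-34a-5p are tight, and the groups of the 5 multiciliated members are spread far more widely.

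Libraries given the same treatment disagreed strongly about the multiciliated members. The SD of miR-34c-5p within the 8 groups of sex and treatment was 2.35 on the log2 scale in the amygdala, against 1.76 in the ventral striatum. For miR-34a-5p it was 0.43 and 0.57. Among the 582 names with a mean of at least 10 RPM in the amygdala, ordered from the largest SD, miR-34b-5p stood at place 2, mir-34c at 3, miR-34c-5p at 4 and miR-449a-5p at 8, and miR-34a-5p at place 170. The median SD of those names was 0.33. Among the 596 such names of the ventral striatum, miR-449a-5p stood at place 2, miR-34b-3p at 7, miR-34b-5p at 9 and miR-34c-5p at 11, and miR-34a-5p at place 70, with a median SD of 0.30.

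Between the regions the family split: miR-34a was higher in the ventral striatum, and the multiciliated members had lower means there. miR-34a-5p ran from 50.6 RPM through a median of 100.5 to 178 RPM in the 24 amygdala libraries, and from 90.3 RPM through a median of 168 to 329 RPM in the 24 ventral striatum libraries. Its mean was 1.77 times as high in the ventral striatum, the log2 difference was 0.78 ± 0.14 (SE), and the adjusted p from limma was 8.6e-05. The precursor mir-34a rose likewise, by 0.79 ± 0.14 (SE), adjusted p 7.5e-05. Although the ranges overlapped, the ventral striatum library was the higher in 19 of 24 pairs of consecutive library numbers with the same sex and treatment. Although the rats were shared, the labels do not say which pools of the regions hold the same rats, so the regions were compared as separate libraries.

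miR-34c-5p ran from 150 RPM through a median of 3047 to 13297 RPM in the amygdala, and from 141 RPM through a median of 584 to 5215 RPM in the ventral striatum. The lowest libraries of both regions were alike, and the regions differed in how high the upper libraries reached. The log2 difference, ventral striatum minus amygdala, was −1.42 ± 0.59 (SE), with an adjusted p of 0.068. miR-34b-5p gave −1.44 ± 0.61 and miR-34b-3p −1.41 ± 0.58, with adjusted p of 0.075 and 0.067. miR-34c-3p gave −0.95 ± 0.49 (adjusted p 0.15) and miR-449a-5p −0.81 ± 0.61 (adjusted p 0.35). The precursors gave −1.43 ± 0.59 for mir-34c, −1.45 ± 0.59 for mir-34b and −0.81 ± 0.61 for mir-449a. Of the 24 pairs of consecutive library numbers, the amygdala library was the higher in 18 for miR-34c-5p and 17 for miR-34b-5p. It was the higher in 19 for miR-34b-3p, 17 for miR-34c-3p and 16 for miR-449a-5p.

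Thus 2 of the 10 names, both of miR-34a, passed an adjusted p of 0.05 between the regions, against 28.5% of the 968 names tested, and none of the 8 multiciliated names did. All 8 were lower in the ventral striatum, as were 37.1% of all names, and 5 of them had an unadjusted p under 0.05 (11.7% of all names, counting those that were lower). The permutation test of mean RPM, with 100000 resamples, gave p of 0.0011 for miR-34c-5p, 0.0027 for miR-34b-5p, 0.0023 for miR-34b-3p, 0.0035 for miR-34c-3p and 0.19 for miR-449a-5p. That test weighs the high libraries more than the log2 scale does. The count of members called rose to between 4 and 7 when any of 9 libraries was left out (ACN female 2 and male 2, ACS male 2, AEN female 3 and male 1, AES male 3, VCN male 1, VES female 3 and male 1), and to 7 when names with a mean under 10 RPM were not tested. The share of all names called under these settings is not given, so the rise is not read as a result about the members. The same limit holds for every count with left-out libraries below. The direction was lower in the ventral striatum for all 8 multiciliated names under each of these settings. In bulk tissue a smaller number of cells of a type and less RNA per cell cannot be told apart.

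**Figure D2:**
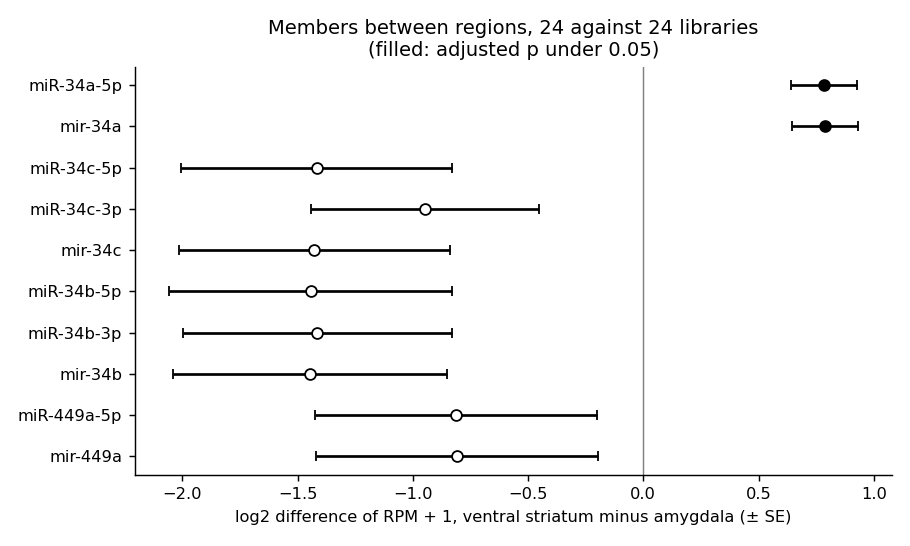
Log2 difference of RPM + 1 between regions (ventral striatum minus amygdala, horizontal axis) for each of the 10 names, with its SE, from 24 libraries a region. Filled points passed an adjusted p of 0.05. The 2 miR-34a names lie to the right of 0, at 0.78 and 0.79, and the 8 multiciliated names to the left, at −0.81 to −1.45.

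The contrast between miR-34a-5p and the multiciliated members was tested within libraries, as the log2 ratio of miR-34a-5p to each of the 5 mature members. In the amygdala miR-34a-5p stood below miR-34c-5p by a mean of 4.22 on the log2 scale (a log2 ratio of −4.22 ± 2.21 SD, n = 24), and in the ventral striatum the log2 ratio was −2.01 ± 1.94 (SD, n = 24). The difference of 2.20 had an adjusted p of 0.016 in a permutation test over 45 ratios and contrasts. The ratios to miR-34b-5p, miR-34b-3p and miR-34c-3p moved the same way, by 2.23, 2.20 and 1.73, each with an adjusted p of 0.016. The ratio to miR-449a-5p differed by 1.60, with an adjusted p of 0.16. With a pseudocount of 0.1, 2 of the 45 passed. None of the 40 ratios within the treatment contrasts passed, with adjusted p of 0.64 or more in exact permutation tests.

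The share of the seed GGCAGUG that each member supplied followed from these levels. In the amygdala miR-34c-5p made up a median of 93.2% of the RPM of all mature names with this seed (52.4% to 95.5%), and miR-34a-5p a median of 2.64% (0.75% to 47.6%). In the ventral striatum the medians were 76.8% (38.7% to 91.1%) and 20.4% (1.70% to 59.8%). miR-34a-5p was therefore a small part of the seed in most amygdala libraries and the larger part in some ventral striatum libraries. The total of the seed ran from 274 to 14107 RPM in the amygdala and from 304 to 5724 RPM in the ventral striatum.

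**Figure D3:**
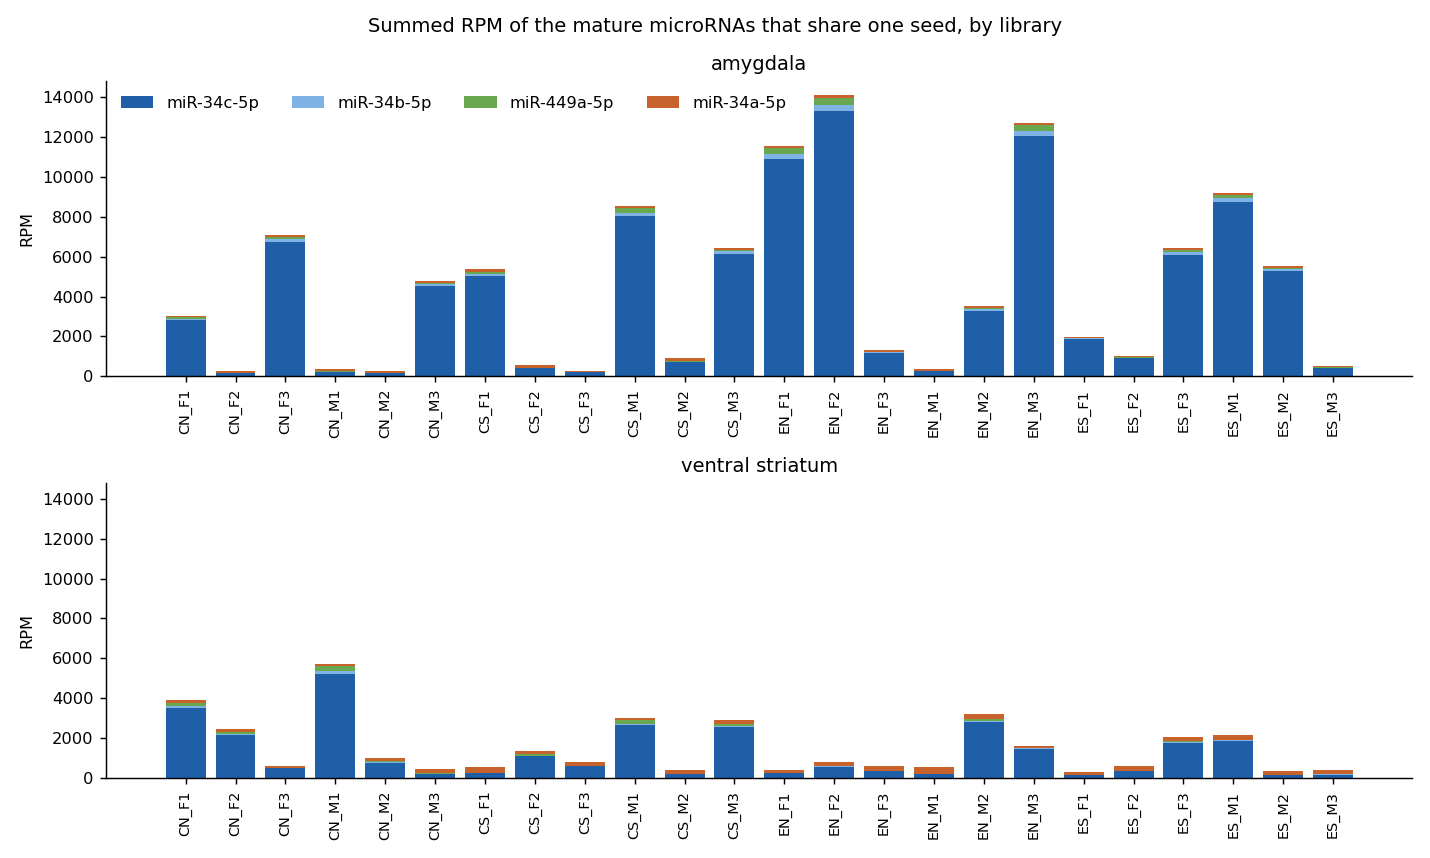
Summed RPM of miR-34c-5p, miR-34b-5p, miR-449a-5p and miR-34a-5p in each library (bars from 0), amygdala above and ventral striatum below, labelled by treatment, sex and replicate. The height of the tall bars is set almost wholly by miR-34c-5p, and the orange part, miR-34a-5p, stays between 50.6 and 329 RPM.

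The first treatment question was whether prenatal ethanol changed the family in non-enriched rats, the contrast N(EvC). In the amygdala miR-34c-5p ran from 150 RPM through a median of 1520 to 6733 RPM in CN, and from 238 RPM through a median of 7095 to 13297 RPM in EN. The means were 2432 ± 2765 and 6824 ± 5890 RPM (SD, n = 6). Some EN libraries exceeded every CN library, and the lowest EN library lay near the lowest of CN, so the ranges overlapped. miR-449a-5p ran from 0 RPM through 43.01 to 102 RPM in CN, and from 3.77 RPM through 170 to 358 RPM in EN. miR-34b-5p ran from 0 RPM through 36.3 to 151 RPM in CN, and from 5.03 RPM through 163 to 321 RPM in EN. By contrast miR-34a-5p ran from 73.4 RPM through 98.3 to 137 RPM in CN, and from 73.8 RPM through 111 to 134 RPM in EN, nearly the same range.

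All 10 names had higher log2 means in EN than in CN of the amygdala, where 34.6% of the 910 names tested were higher, and none of the 10 had a p under 0.05, against 4.51% of all names. The log2 differences were 1.96 ± 1.31 (SE) for miR-34c-5p, 2.23 ± 1.33 for miR-34b-5p, 1.88 ± 1.23 for miR-449a-5p and 0.09 ± 0.24 for miR-34a-5p. Their p-values from limma were 0.15, 0.11, 0.15 and 0.73, and the adjusted p 0.84, 0.84, 0.84 and 0.96. The exact permutation test of mean RPM gave 0.13, 0.13, 0.14 and 0.60. Without ACN male 3 or without AEN male 1, 3 and 4 names had a p under 0.05. With both EN libraries over 100000 RPM of miR-204-5p left out (AEN female 2 and male 3), the log2 difference of miR-34c-5p was 1.02 (p 0.49). The summed RPM of 5 mature choroid plexus names moved alongside, with medians of 8161 in CN and 30317 in EN and ranges of 3423 to 34806 and 3848 to 131318, and its part in the result was not tested.

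In the ventral striatum the same contrast pointed the other way. miR-34c-5p ran from 211 RPM through 1452 to 5215 RPM in CN, and from 213 RPM through 463 to 2795 RPM in EN. miR-449a-5p ran from 5.31 RPM through 84.4 to 263 RPM in CN, and from 5.43 RPM through 14.3 to 107 RPM in EN. miR-34a-5p ran from 97.0 RPM through 132 to 230 RPM in CN, and from 90.3 RPM through 211 to 329 RPM in EN. All 8 multiciliated names had lower log2 means in EN, where 45.8% of the 933 names tested were lower, and both miR-34a names had higher ones. The p-values of the 10 names ran from 0.21 to 0.86, so none was under 0.05 (2.04% of all names). Without VEN male 3, 2 names had a p under 0.05. The summed RPM of the mature choroid plexus names did not move with this, at a median of 6317 RPM in CN and 6467 RPM in EN. Most of that sum was miR-204-5p, with a median of 5637 RPM beside 6197 RPM for the sum over the ventral striatum libraries. Log2 differences of the single choroid plexus names ran from −0.50 ± 0.44 (SE) for miR-204-3p to 0.10 ± 0.16 for mir-204. Their p-values in limma were 0.27 and 0.51.

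The difference between the regions in the ethanol effect was itself tested. For 7 of the 8 multiciliated names its p ran from 0.059 to 0.084 and for miR-34c-3p it was 0.40, all with an adjusted p of 1.0. All 8 were lower, as were 36.5% of all names. For the miR-34a names it was 0.43 and 0.45. None of the 10 names had a p under 0.05 (3.62% of 968 names), but 1 to 7 names did when any of 9 libraries was left out (ACN female 3 and male 3, AEN female 3 and male 1, VCN female 3 and male 3, VEN female 2, male 2 and male 3). The names are not independent of each other, since a precursor and its mature forms share reads.

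Social enrichment of ethanol-exposed rats, the contrast E(SvN), was the second question. In ES of the amygdala miR-34c-5p ran from 418 RPM through a median of 3566 to 8726 RPM, within the range of EN given above. miR-34a-5p ran from 56.8 RPM through 79.0 to 118 RPM. The log2 differences were −0.51 ± 1.31 (SE) for miR-34c-5p, −0.45 ± 1.33 for miR-34b-5p, −0.63 ± 1.23 for miR-449a-5p and −0.43 ± 0.24 for miR-34a-5p, with adjusted p of 1.0. All 10 names were lower in ES (39.7% of all names were). The unadjusted p of miR-34a-5p was 0.099 in limma and 0.063 in the exact permutation test, the smallest exact p among the 80 pairs of a member and a treatment contrast. Without AEN female 3 or AES female 3, 1 name had a p under 0.05, miR-34a-5p in both cases. The signs of miR-34c-5p, miR-34b-5p and miR-449a-5p were not stable, and became positive (0.44, 0.49 and 0.43) with AEN female 2 and male 3 left out.

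In the ventral striatum the group means of miR-34c-5p fell in the order CN, CS, EN and ES, at 2051 ± 1978, 1221 ± 1106, 938 ± 1018 and 734 ± 837 RPM (SD, n = 6), and neighbouring groups did not differ beyond this spread. The means of miR-34a-5p stood in the opposite order, at 143 ± 46.1, 174 ± 68.1, 202 ± 90.2 and 203 ± 51.1 RPM. In the amygdala the order of miR-34c-5p was CN, CS, ES and EN, at 2432, 3417, 3875 and 6824 RPM, again with every SD about as large as the mean.

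Over all 8 treatment contrasts the groups of every member overlapped in 80 of 80 comparisons, and no member had a p under 0.05 in limma or in the exact permutation test, whose smallest possible p is 0.0022. Overlap and the exact test were not taken over all names, so only the limma counts have a share beside them. The share of all names with an unadjusted p under 0.05 was 3.85% for S(EvC), 2.64% for C(SvN) and 2.64% for E(SvN) of the amygdala. In the ventral striatum it was 2.25% for S(EvC), 3.86% for C(SvN) and 1.82% for E(SvN). At an adjusted p under 0.05 limma called 0.0% of the names in each of the 8 contrasts. Leaving out ACS female 3 or AES female 3 gave 2 and 1 names in the contrast S(EvC) of the amygdala. No member had a p under 0.05 for the interaction of ethanol and housing (3.85% of all names in the amygdala, against 2.57% in the ventral striatum), between the sexes (4.18% and 2.89%), or for the difference between the regions in E(SvN) (2.48%). Without ACS female 3, 1 name did for the interaction in the amygdala. The smallest p between the sexes was 0.34, for miR-34a-5p in the amygdala.

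The multiciliated members varied together, although each came with a large spread. Within groups of sex and treatment, log2 values of miR-34c-5p and miR-34b-5p had a Pearson r of 0.983 and a Spearman rho of 0.977 in the amygdala, and 0.972 and 0.969 in the ventral striatum (n = 24, permutation adjusted p 0.00023 and 0.00020 in both). The assignment of reads matching both of these near-identical names is not known, so this relation is uncertain to that extent. miR-449a-5p, encoded on another chromosome, followed miR-34c-5p almost as closely. Its r was 0.928 and its rho 0.937 in the amygdala (adjusted p 0.00032 for each), and 0.905 and 0.903 in the ventral striatum (adjusted p 0.00061 and 0.00053). After removal of the 2 libraries farthest from the median of miR-34c-5p, these r values were 0.992, 0.968, 0.939 and 0.889 in the order given.

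miR-34a-5p did not share this variation. Its r with miR-34c-5p was 0.148 in the amygdala (rho 0.155, permutation p 0.55 and 0.52, adjusted p 0.72 and 0.73) and −0.326 in the ventral striatum (rho −0.301, p 0.22 and 0.25, adjusted p 0.49 and 0.50). Without the 2 farthest libraries r was 0.289 and −0.265. None of the 4 other mature members passed against miR-34a-5p either. The family of relations tested numbered 158. It held only members, listed names and the number of reads, so no share of all names can be set beside counts of names that passed.

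The proportions of the multiciliated members were much steadier than their levels. Summed over the libraries of a region, miR-34b-5p amounted to 2.32% of miR-34c-5p in the amygdala, against 2.54% in the ventral striatum, and miR-34b-3p to 1.67% and 1.88%. In the 15 amygdala libraries with at least 1000 RPM of miR-34c-5p, miR-34b-5p lay between 2.14% and 2.42% of it in every one. In the 10 such ventral striatum libraries it lay between 1.78% and 3.51%. How reads matching both of these near-identical names were assigned is not known, so this proportion is uncertain to that extent. miR-449a-5p was less steady, at 0.91% to 2.74% of miR-34c-5p in those amygdala libraries and 1.57% to 9.89% in those of the ventral striatum. miR-34c-3p amounted to 0.48% and 0.63% of its 5p partner. miR-449a-5p amounted to 2.18% of miR-34c-5p in the amygdala, against 4.48% in the ventral striatum. As a log2 ratio per library, miR-449a-5p to miR-34c-5p was higher by 0.60 in the ventral striatum (permutation p 0.013, adjusted p 0.064 over 5 ratios), and miR-34b-5p to miR-34c-5p differed by −0.03 (p 0.84, adjusted p 0.99). These ratios were chosen after the values were seen.

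The names whose pattern was most like that of miR-34c-5p differed between the regions. Likeness was the Pearson r of log2 values within groups, over 24 libraries, among names with a mean of at least 10 RPM. In the amygdala the 5 leading names were mir-1912 (0.957), miR-1298 (0.954), mir-1298 (0.947), mir-204 (0.935) and miR-204-5p (0.931). mir-204 and mir-1298 are known from choroid plexus epithelium, and mir-1912, mir-1298 and mir-448 lie in the introns of the serotonin receptor gene Htr2c, which that epithelium expresses strongly. In the ventral striatum r for these names was 0.079 to 0.335. There the leading names were mir-375 (0.952) and miR-375-3p (0.950), followed at a distance by miR-344b-1-3p (0.660), miR-708-5p (0.656) and mir-3099 (0.646). miR-375, known from endocrine cells of the pituitary and pancreas, was also close to miR-34c-5p in the amygdala, with r of 0.901 for both names. The difference between the regions in these r values was not tested.

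The levels of miR-204-5p, which regulates epithelial differentiation, had different ranges in the regions. In the ventral striatum it stayed between 3789 and 6958 RPM while miR-34c-5p ranged 36.9-fold, and r was 0.106 (rho 0.045, permutation p 0.72 and 0.87, adjusted p 0.80 and 0.91, and r 0.149 without the 2 farthest libraries). In the amygdala it fell into separate sets, divided at 10000 RPM after its values were seen, with 11 libraries between 3085 and 5071 RPM and 13 between 11586 and 122453 RPM. miR-34c-5p was at 150 to 1858 RPM in the lower set and at 2809 to 13297 RPM in the upper set. Each of the 4 treatment groups had libraries in both sets, with 3 of 6 in the upper set in CN, CS and ES and 4 of 6 in EN. Inside each set, values were not centred on groups of sex and treatment. These relations therefore also hold differences between groups and are not the measure used above. The sets were also drawn from the values of miR-204-5p itself. The p-values inside them are descriptive and do not test a relation within groups of sex and treatment. Within the upper set r was 0.900 (rho 0.896, permutation p 4e-05 and 0.00012, adjusted p 0.00011 and 0.00030 over 20 relations) and 0.838 without the 2 farthest libraries. Within the lower set r was 0.729 (rho 0.709, p 0.013 and 0.019, adjusted p 0.020 and 0.029) and 0.881 without those.

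For the rest of the choroid plexus list, the uncentred r with miR-34c-5p in the upper set was 0.968 for miR-1298, 0.939 for miR-448-3p and 0.931 for mir-1912. For miR-211-5p it was 0.818 and for miR-204-3p 0.648, and 0.709 and 0.381 without the 2 farthest libraries. In the lower set r for miR-1298, miR-448-3p and mir-1912 was 0.452, 0.203 and 0.614 (adjusted p of 0.18, 0.58 and 0.051 in the permutation test). Those 11 libraries held miR-448-3p at 2.70 to 18.4 RPM and mir-1912 at 0 to 7.71 RPM, near the floor of 3 reads. There r was −0.116 for miR-211-5p and 0.537 for miR-204-3p (permutation adjusted p 0.73 and 0.11), and −0.089 and 0.805 without the 2 farthest libraries. The difference between the sets was not tested. miR-34b-5p had r of 0.925 (adjusted p 0.00015) and miR-449a-5p of 0.738 (adjusted p 0.0082) in the lower set. Between the regions all 10 choroid plexus names tested had lower means in the ventral striatum (37.1% of all names did), with a median log2 difference of −0.84 beside 0.08 over all names, and their part in the lower means of the multiciliated members was not tested. An adjusted p under 0.05 in limma was reached by 4 of the 10, all of them lower, against 28.5% of all names in either direction. These were the precursor and 5p names of mir-204 and mir-211, which share reads within a hairpin. miR-204-5p differed by −1.13 ± 0.37 (SE, adjusted p 0.021) and miR-211-5p by −0.65 ± 0.19 (adjusted p 0.010). The names of mir-448, mir-1298 and mir-1912 did not pass, with adjusted p of 0.092 to 0.16. Neither did miR-204-3p, at −0.54 ± 0.38 (SE, adjusted p 0.32).

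**Figure D4:**
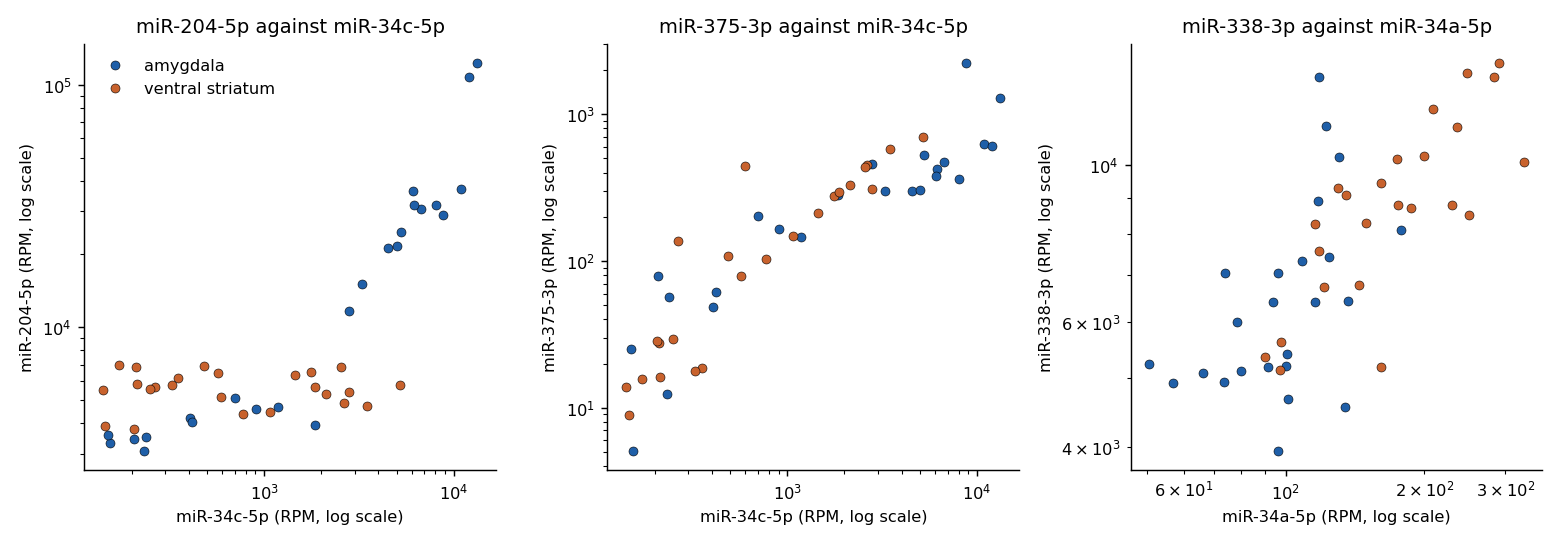
RPM of miR-204-5p and of miR-375-3p against miR-34c-5p, and of miR-338-3p against miR-34a-5p, one point per library on log axes. In the first panel the amygdala points rise to 122453 RPM of miR-204-5p and the ventral striatum points stay between 3789 and 6958 RPM. In the second panel both regions lie along a shared course.

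Of the other cell type lists, 3 of 5 neuronal names moved against miR-34c-5p in the amygdala and a single epithelial name moved with it. These relations were tested for listed names only, so the share of all names that would pass is not known. Of 8 names of the epithelial mir-8 and mir-183 clusters, miR-182 followed it in the amygdala (r 0.908, rho 0.901, permutation adjusted p 0.00032 and 0.00020, and 0.899 without the 2 farthest libraries) and the other 7 did not pass. None of the 8 passed in the ventral striatum, where r ran from −0.472 to 0.430, and miR-200c-3p was listed at 0 in 22 of 24 libraries there and in 21 of 24 amygdala libraries. In the amygdala miR-96-5p was at 0 in 15, miR-200b-3p in 14 and miR-429 in 11 libraries. Medians there were 2.63 RPM for miR-200a-3p and 2.0e-05 RPM for miR-183-5p, so a relation of these names would be hard to see. miR-141-3p had a median of 32.4 RPM there and did not pass (r 0.259). Of 5 neuronal names, 3 were negatively related to it in the amygdala, miR-138-5p with r of −0.730 (permutation adjusted p 0.0044), miR-132-3p with −0.610 (0.027) and miR-124-3p with −0.594 (0.041), with rho of −0.780, −0.647 and −0.687 (adjusted p 0.0030, 0.021 and 0.011) and r of −0.693, −0.557 and −0.612 without the 2 farthest libraries. In the amygdala miR-128-3p (r −0.453, permutation adjusted p 0.17) and miR-9a-5p (r −0.035, adjusted p 0.91) did not pass. None of the 5 neuronal names passed in the ventral striatum. The RPM of mature names add up to a fixed total, and miR-204-5p, which followed miR-34c-5p in the amygdala, reached 122453 RPM there. The part of this fixed total in the negative r values was not tested. No name of 3 from oligodendrocytes or of 3 from red blood cells passed in either region, and neither did the number of mature reads (r 0.201 in the amygdala, against 0.517 in the ventral striatum, adjusted p 0.66 and 0.20).

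miR-34a-5p kept different company, and it was not that of neuronal microRNAs. In both regions the name most like it was a form of mir-338, which is known from oligodendrocytes. For miR-338-3p r was 0.769 in the amygdala (rho 0.742, permutation adjusted p 0.012 and 0.017, and 0.744 without the 2 farthest libraries) and 0.875 in the ventral striatum (rho 0.856, adjusted p 0.00068 and 0.0014, and 0.869 without those). The other leading names were mir-338, miR-338-5p, miR-219b and mir-219a-2 in the amygdala (r 0.686 to 0.774) and mir-338, mir-219a-1, mir-93 and miR-93-5p in the ventral striatum (0.789 to 0.872). miR-219a and miR-338 promote the maturation of oligodendrocytes. Of the 3 oligodendrocyte names listed, 2 passed with miR-34a-5p in the amygdala, and all 3 passed in the ventral striatum, each with a positive r. Of the 5 neuronal names none passed in the amygdala (r −0.558 to −0.205) and 4 did in the ventral striatum, with a negative r. Only listed names were tested, so the share of all names that would pass is not known. All 3 oligodendrocyte names were also higher in the ventral striatum at an adjusted p under 0.05, by 0.44 to 0.59 on the log2 scale, where 28.5% of all names were called in either direction. These stand beside the 0.78 of miR-34a-5p, and their part in that difference was not tested.

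No other microRNA linked to p53 passed the test against miR-34a-5p. The list held miR-192-5p, miR-194-5p, miR-145-5p, miR-143-3p, miR-107-3p and miR-16-5p, and r with miR-34a-5p ran from −0.306 to 0.558 in the amygdala and from −0.493 to 0.224 in the ventral striatum. The highest was that of miR-16-5p in the amygdala (r 0.558, rho 0.467, permutation p 0.015 and 0.051, adjusted p 0.076 and 0.21, and r 0.666 without the 2 farthest libraries). Against miR-34c-5p, miR-143-3p passed in the amygdala with a negative r (−0.638, adjusted p 0.046, rho −0.596, adjusted p 0.069 in the permutation test). Between the regions 2 of the 6 were higher in the ventral striatum at an adjusted p under 0.05, miR-16-5p by 0.27 ± 0.05 (SE, adjusted p 0.00011) and miR-194-5p by 0.43 ± 0.12 (adjusted p 0.0062), against 28.5% of all names. In N(EvC) of the amygdala 1 of the 6 had a p under 0.05, miR-107-3p at −0.21 ± 0.09 (p 0.037, adjusted p 0.84), against 4.51% of all names.

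The remaining relatives were at the limit of detection. The passenger strand miR-34a-3p was at 0 in 21 amygdala and 18 ventral striatum libraries and reached 1.93 RPM, and miR-449c-5p was at 0 in 23 libraries of each region. The precursor mir-449c, the neighbour of mir-449a, ran from 0 RPM through a median of 3.09 to 29.5 RPM in the amygdala and from 0 RPM through 2.83 to 29.1 RPM in the ventral striatum. It followed miR-34c-5p in both regions, with r of 0.63 (rho 0.691, permutation adjusted p 0.043 and 0.016) in the amygdala and 0.739 (rho 0.756, adjusted p 0.013 and 0.0069) in the ventral striatum, and 0.610 and 0.677 without the 2 farthest libraries. These medians lie within the 1.90 to 7.16 RPM that 3 precursor reads were worth. Between the regions it differed by 0.08 ± 0.46 (SE, adjusted p 0.94).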

How the data were processed

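The authors deposited one table of signal per miRBase name and library, headed RPM, made from TruSeq small RNA libraries run on a MiSeq, aligned with Bowtie to Rn5 and quantified in Partek Flow against miRBase 21. The values of mature and of precursor names each add up to 1000000 per library, so levels were compared within a name or among mature names. The worth of 1 read was taken as the smallest value over 0.5 RPM shared by at least 3 names of a library.

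Names above 0 in at least 6 of 24 libraries of a region (6 of 48 for both regions) entered limma 3.58.1 (trend, R 4.3.3) as log2(RPM + 1), with sex and treatment as 8 cells per region and Benjamini-Hochberg adjustment over all names. All p-values are two-sided. For mean RPM, all 924 splits of 12 libraries were enumerated in an exact permutation test, and 100000 resamples were drawn between the regions. Relations within groups were tested by permuting libraries within cells 100000 times, where the smallest possible p is 1e-05, on values centred on cell means. Scripts used Python 3.11.15, numpy 2.4.6, pandas 2.3.3 and scipy 1.17.1, and were tested on simulated data. p-values measure the spread between pools.

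All members are named. Others were named from lists of relatives, p53-linked names and cell type markers, or as the 5 names with the highest r to miR-34c-5p or miR-34a-5p in a region. The members and lists were chosen with earlier results of these data known. Fold changes are given for every member between regions and for 4 mature members in N(EvC) and E(SvN) of the amygdala. Library sets multiplexed together are not labelled, so no batch was tested. Alternatives were a pseudocount of 0.1 or 10, testing names without any filter or only those averaging 10 RPM, median-ratio rescaling, the replicate number as a block, the 12 libraries compared, a three-way model on unlogged RPM, consecutive library numbers as a random block, and each library left out.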

Additional observations from a re-analysis of the deposited data

Results flagged for a closer look

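In groups of 6 libraries, a library was marked where its gap to the next value, as a share of the range of the group, exceeded Dixon's critical value. This happened 6 times in 80 groups of a member. For independent groups of normally distributed values, chance would mark about 1 group in 20. The RPM values were not logged, and a precursor and its mature forms share reads, so that rate need not hold here. All 6 were the highest library of a ventral striatum group. In VES, female 3 stood at 81.2 RPM of miR-449a-5p (next 29.2), 72.7 RPM of mir-449a (next 28.7) and 22.6 RPM of miR-34c-3p (next 7.78). In VEN, male 2 stood at 107 RPM of miR-449a-5p (next 40.7) and 101 RPM of mir-449a (next 37.1). In VCN, male 3 stood at 267 RPM of mir-34a (next 169), and it had the lowest miR-34c-5p of that group, 211 RPM. None of these libraries was marked for miR-34c-5p itself.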

How the results depend on the processing

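The rise of both miR-34a names in the ventral striatum held under every alternative that gives a log2 value, with miR-34a-5p at 0.71 to 0.79 on the log2 scale and at 0.73 to 0.85 with each library left out. The count of members called between the regions, 2, became 7 with a mean of at least 10 RPM and 4 with the replicate block, and ran from 2 to 7 with each library left out. Fewer names were tested under the first of these. For V minus A of N(EvC) the count of 0 became 1 with a pseudocount of 0.1 and 2 with the replicate block, and 0 to 7 with each library left out. For N(EvC) of the amygdala it became 1 in the model on unlogged RPM (mir-449a, p 0.049), and 0 to 4 with each library left out. Left-out libraries gave 0 to 2 in S(EvC) of the amygdala and N(EvC) of the ventral striatum, 0 to 1 in E(SvN) and the interaction of the amygdala, and 0 elsewhere. The replicate block changed no other count. Shares of all names under these settings are not given beside these counts, which are therefore not read as results about the members. Equal replicate numbers were no sign of a shared origin, since the deviations of such libraries correlated at a median of 0.00068 (A) and 0.0018 (V).

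Of the 45 ratios to miR-34a-5p, 4 passed. A pseudocount of 0.1 left 2, and left-out libraries gave 4 to 5. With the libraries over 100000 RPM of miR-204-5p left out, a setting chosen after seeing the data, E(SvN) of the amygdala reversed for miR-34b-5p (0.49), miR-34c-5p (0.44) and miR-449a-5p (0.43). Left-out single libraries moved these 3 from −1.22 to 0.18, −1.29 to 0.16 and −1.41 to 0.089, and in N(EvC) moved miR-34c-5p from 1.16 to 2.75. The cause was not tested. The log2 ratio of miR-449a-5p to miR-34c-5p was 0.68 and 0.79 with a pseudocount of 0.1 and 10 (unadjusted permutation p 0.028 and 0.0016, beside 0.013). The model on unlogged RPM gives no log2 value. Low read numbers limit miR-34c-3p, miR-34b-3p and miR-34b-5p most.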
